A study of Mus musculus with 2 samples.

Results

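Ligands of the epidermal growth factor (EGF) family and the ERBB receptors that bind them were examined in nuclei of the mouse colon after chronic colitis. Of the 32285 genes counted, 10 were chosen by their symbols, namely the 6 ligand genes Areg, Ereg, Hbegf, Tgfa, Btc and Nrg1 and the 4 receptor genes Egfr, Erbb2, Erbb3 and Erbb4. Frozen colon of WT mice was compared with colon of HIF-1α KO mice, which carry a floxed Hif-1α allele and Cre recombinase under the Ncr1 promoter (Ncr1cre+ Hif-1α fl+/fl+). In this model the deletion is meant for NKp46+ innate lymphoid cells alone, so the nuclei described here are mostly of cells that keep Hif-1α. The WT animals were littermates, whose alleles are not further given in the sources used here. Mice of both genotypes were 8 to 12 weeks old and had received 2% dextran sodium sulfate (DSS), which injures the colon epithelium, in the drinking water for 3 days followed by 4 days of recovery, in 4 cycles up to day 28. Tissue of 3 animals per genotype was pooled into 1 library, so differences between the genotypes had no replicates to be judged against and none was tested.

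EGF family ligands are made as membrane proteins, and most are cut from the cell surface by metalloproteases such as ADAM17. Amphiregulin (Areg) and TGF-α (Tgfa) bind the EGF receptor EGFR, epiregulin (Ereg), HB-EGF (Hbegf) and betacellulin (Btc) bind EGFR and ERBB4, and neuregulin 1 (Nrg1) binds ERBB3 and ERBB4. ERBB2 has no known ligand of its own and pairs with the other receptors, while ERBB3 has a weak kinase and signals mainly as a partner. In the gut these signals drive growth of crypt cells and closure of wounds through the RAS-MAPK and PI3K pathways.

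Epgn (epigen), Ereg, Areg and Btc, which encode related ligands, lie next to each other on chromosome 5 of GRCm38, and the neighbours differed in the nuclei that held their transcripts. Ereg (ENSMUSG00000029377) lies at 91074622 to 91093646 on the plus strand. Areg (ENSMUSG00000029378) lies at 91139599 to 91148432 on the same strand and begins 45952 bases after the end of Ereg. Btc (ENSMUSG00000082361) lies at 91357261 to 91402994 on the minus strand, 208828 bases beyond Areg. Areg was highest in absorptive enterocyte-like nuclei and Ereg in fibroblast-like nuclei, whereas Btc was low in all classes. The 250 bases before the start of Areg (chr5:91139349-91139598, plus strand) and of Btc (chr5:91402995-91403244, minus strand) are shown to compare the promoters of these neighbours, from RefSeq on GRCm38.p6.
Areg promoter: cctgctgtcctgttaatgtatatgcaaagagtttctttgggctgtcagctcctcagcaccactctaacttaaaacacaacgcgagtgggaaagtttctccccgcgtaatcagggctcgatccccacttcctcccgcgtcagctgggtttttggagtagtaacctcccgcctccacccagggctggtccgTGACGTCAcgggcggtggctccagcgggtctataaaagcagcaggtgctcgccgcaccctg
Btc promoter: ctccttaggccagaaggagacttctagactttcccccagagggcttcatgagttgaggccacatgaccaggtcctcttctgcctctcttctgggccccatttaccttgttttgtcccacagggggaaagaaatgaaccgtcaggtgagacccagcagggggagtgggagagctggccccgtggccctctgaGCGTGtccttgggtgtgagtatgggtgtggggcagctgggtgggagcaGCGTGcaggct
Capitals mark matches on either strand to 4 motifs, and no match overlapped another. The cAMP response element TGACGTCA was present in 1.62% of 27025 mouse promoters of this length and began at position -61 of Areg, counted back from the gene's start. GCGTG, one form of the core motif bound by HIF, was present in 28.2% of promoters and began at -59 and -11 of Btc. The other form of this core, ACGTG, is in 16.6% of promoters and the AP-1 motif TGANTCA in 6.87%, and neither was found in the windows of Areg and Btc. Among the other members in the RefSeq table, Tgfa had 1 GCGTG at -222, and no match lay in the windows of Egfr, Erbb2 and Erbb4. Ereg, Hbegf, Nrg1 and Erbb3 were not analysed for promoter sequence.

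Nuclei were kept if they had between 400 and 5000 detected genes and at most 10% mitochondrial counts, which gave 4884 nuclei in the WT library and 4702 nuclei in the HIF-1α KO library. A nucleus held a median of 2058.5 and 4197 unique molecular identifiers (UMIs), each standing for 1 captured RNA molecule. The libraries shared 3 barcodes. Muc2, the mucin gene of goblet cells, was at 4459.6 and 3784 CPM (UMIs of a gene per 1000000 UMIs) in goblet-like nuclei, but the 8 other classes also had 316 to 556 CPM in the WT and 407 to 1003 CPM in the HIF-1α KO library. A UMI of a gene in a class therefore does not show that its nuclei express the gene. Ncr1, the gene for NKp46, had a single UMI, from the WT library, and Hif1a had 2284 UMIs in the WT library and 4699 in the other, so the deletion in NKp46+ cells could not be checked. Nuclei fell into 24 clusters, named "-like" from markers that include none of the 10 genes. Of these clusters 4 met no rule for a name, and they held 34.6% of the nuclei of WT mice and 22.4% of those of HIF-1α KO mice. Levels are given for the 9 classes with at least 50 nuclei in each library, as CPM over the summed UMIs of the class with exact 95% Poisson intervals in parentheses. All intervals cover counting error alone, and variation from animal to animal is not in them. A value for all nuclei alone cannot tell fewer nuclei of a class from a lower level within it. Levels within classes are therefore given as well. Whether shares of captured nuclei match shares of cells in the tissue was not checked.

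The 10 genes fell into 3 patterns over the classes, as seen in the plot of each gene's UMIs by class. Nrg1 and Ereg belonged largely to few nuclei, of enteroendocrine-like and fibroblast-like classes. Areg, Hbegf, Erbb2 and Erbb3 were highest in absorptive enterocyte-like nuclei in both libraries, and Tgfa in the WT library. Egfr was broad, Btc was low, and Erbb4 was nearly undetected. Relative to all other nuclei of the same library, 6 members were at least 2-fold higher in their leading class in both libraries. They were Areg, Ereg, Hbegf, Btc, Nrg1 and Erbb3, of which Btc rests on 16 and 10 UMIs in that class. The interval of its log2 ratio in the HIF-1α KO library reached below 0 (-0.02 to 1.95). A leading class is the one with the highest mean level in these same libraries, a choice that by itself favours a high ratio. The share of all genes this far above other nuclei was not computed.

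Nrg1, the ERBB3 and ERBB4 ligand, was highest in enteroendocrine-like nuclei, the hormone-producing cells of the epithelium. Its level there was 6239 CPM (6015 to 6470) in the WT and 6154 CPM (5982 to 6330) in the HIF-1α KO library, and these intervals overlapped. All other nuclei together had 412 and 111 CPM. Enteroendocrine-like nuclei were 3.03% of the WT library and 2.76% of the HIF-1α KO library. Fibroblast-like nuclei came second, with 5348 CPM (5156 to 5545) in the WT and 4102 CPM (3892 to 4320.5) in the HIF-1α KO library. Both classes were separated from the next class in the order of levels, that is, their intervals in both libraries lay above it. The other 7 classes had between 102 and 297 CPM in the WT and between 29.7 and 154 CPM in the HIF-1α KO library.

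Within the enteroendocrine-like class Nrg1 was uneven. The larger of its clusters, led by Lmx1a, Piezo2 and Tph1, had 6864 CPM in the WT and 7785 CPM in the HIF-1α KO library, and the smaller one, led by Pappa2, Gcg and Pyy, had 1002 and 309 CPM. A single nucleus held 42 of the 50 UMIs of the smaller cluster in the WT library and 1 nucleus 32 of the 53 in the HIF-1α KO library, and without it the levels were 179 and 127 CPM. Tph1 encodes the enzyme that starts serotonin synthesis in enterochromaffin cells, and Gcg and Pyy encode the hormones of L cells. In the larger cluster a nucleus held a median of 2 and at most 174 Nrg1 UMIs in the WT library, and a median of 6.5 and at most 731 in the HIF-1α KO library. Median depths there were 2810 and 4736 UMIs, so UMIs per nucleus are not comparable between the libraries. In this cluster 60 of the 135 nuclei of the WT library and 48 of the 100 of the HIF-1α KO library had at least 10 UMIs of Nrg1. Nrg1 was thus carried by fewer than all nuclei of the cluster in each library, and the top 2 nuclei of the HIF-1α KO library held 23.9% of its UMIs there.

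A second clustering of these nuclei gave 5 groups, as shown in the plot of Nrg1 and Ereg by group. The groups led by Unc5d and Arhgap36 (20 WT and 26 HIF-1α KO nuclei) and by Cntn1 and Asic2 (56 and 35 nuclei) had the highest Nrg1. The first had 10992 CPM in the WT and 13357 CPM in the HIF-1α KO library, and the second had 9814 and 9769.7 CPM. Tph1 was at 3033 and 2430.3 CPM in the first and at 992 and 1492 CPM in the second. In the group led by Pyy and Gcg (17 and 36 nuclei) Nrg1 was at 935 CPM (708 to 1212) in the WT and 336 CPM (261 to 425) in the HIF-1α KO library, and Tph1 at 263 and 4.87 CPM. Without the nucleus with the most Nrg1 UMIs in each library, Nrg1 in this group was at 269 and 185 CPM. Nrg1 was therefore higher in the groups with more Tph1 than in the group with L cell hormones in both libraries. A group led by Clca4a, Slc26a3 and mitochondrial transcripts, which are not enteroendocrine markers, had 3266 and 2226 CPM. The last group, led by Megf11 and by Neurog3, a factor of enteroendocrine precursors, had 8 Nrg1 UMIs in 26 WT nuclei and 0 in 2 HIF-1α KO nuclei.

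**Figure D1:**
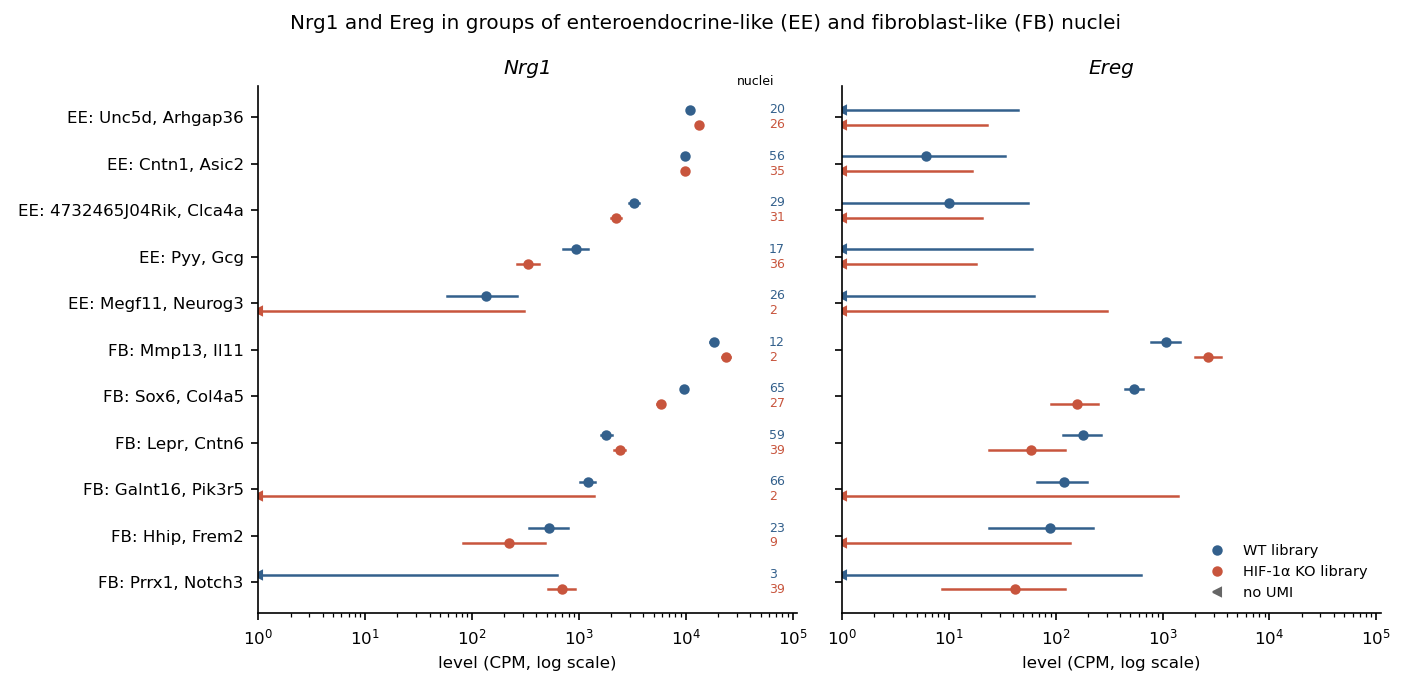
Points are levels in CPM on a log axis in groups of enteroendocrine-like (EE) and fibroblast-like (FB) nuclei named by leading genes, with exact 95% Poisson intervals (drawn from 1 CPM where they reach 0), triangles mark 0 UMIs and the numbers are nuclei per library. Nrg1 reaches at least 9769.7 CPM in both libraries in 3 groups, and Ereg reaches 1088 and 2678 CPM in the group led by Mmp13.

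In fibroblast-like nuclei Nrg1 and Ereg, the latter a ligand of EGFR and ERBB4, were highest in the same group. It was led by Mmp13, Khdrbs2 and Sorcs1, with Mmp10, Inhba and Il11 among its 10 leading genes, met no rule for a name, and held 12 WT and 2 HIF-1α KO nuclei. Mmp13 and Mmp10 encode matrix proteases, Inhba an activin subunit and Il11 a cytokine of the IL-6 family. Nrg1 was at 18269 CPM in the WT and 23788 CPM in the HIF-1α KO library, and Ereg at 1088 CPM (784 to 1471) and 2678 CPM (1994 to 3521). With 2 nuclei, the HIF-1α KO values describe those nuclei and no more. The next group, Pdgfra-high subepithelial fibroblast-like by its markers (65 and 27 nuclei), had 9512 CPM of Nrg1 in the WT and 5835 CPM in the HIF-1α KO library. Ereg in this group was at 542 CPM (442 to 658) and 157 CPM (91.4 to 251). In the WT library these levels rested in part on 1 nucleus per gene, with 57 of the 102 Ereg UMIs and 539 of the 1790 Nrg1 UMIs of the group. Without the nucleus with the most UMIs of the gene in each library, Ereg was at 260 and 92 CPM and Nrg1 at 7216 and 5064 CPM. The other 4 groups had at most 2408 CPM of Nrg1 and at most 180 CPM of Ereg. Makeup differed between the libraries, since a group led by Galnt16 held 66 WT and 2 HIF-1α KO nuclei and one led by Prrx1 held 3 and 39.

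Ereg in all fibroblast-like nuclei was at 345 CPM (297 to 397) in the WT and 224 CPM (177 to 280) in the HIF-1α KO library, against 12 and 2.88 CPM in all other nuclei. No other class overlapped with it. These levels rested on few nuclei, since 21.1% of the 228 fibroblast-like nuclei in the WT library and 14.4% of the 118 in the HIF-1α KO library had a UMI. In the WT library 4 nuclei had 10 or more Ereg UMIs and the highest had 57. In the HIF-1α KO library a single nucleus, in the group led by Mmp13, held 51 of the 78 UMIs. Outside the fibroblasts the highest WT levels were 27.4 CPM in smooth muscle-like and 26.9 CPM in absorptive enterocyte-like nuclei, where the HIF-1α KO library had 12.7 and 6.56 CPM. Enteroendocrine-like nuclei, which shared high Nrg1 with the fibroblasts, had 2 Ereg UMIs, both in the WT library.

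**Figure D2:**
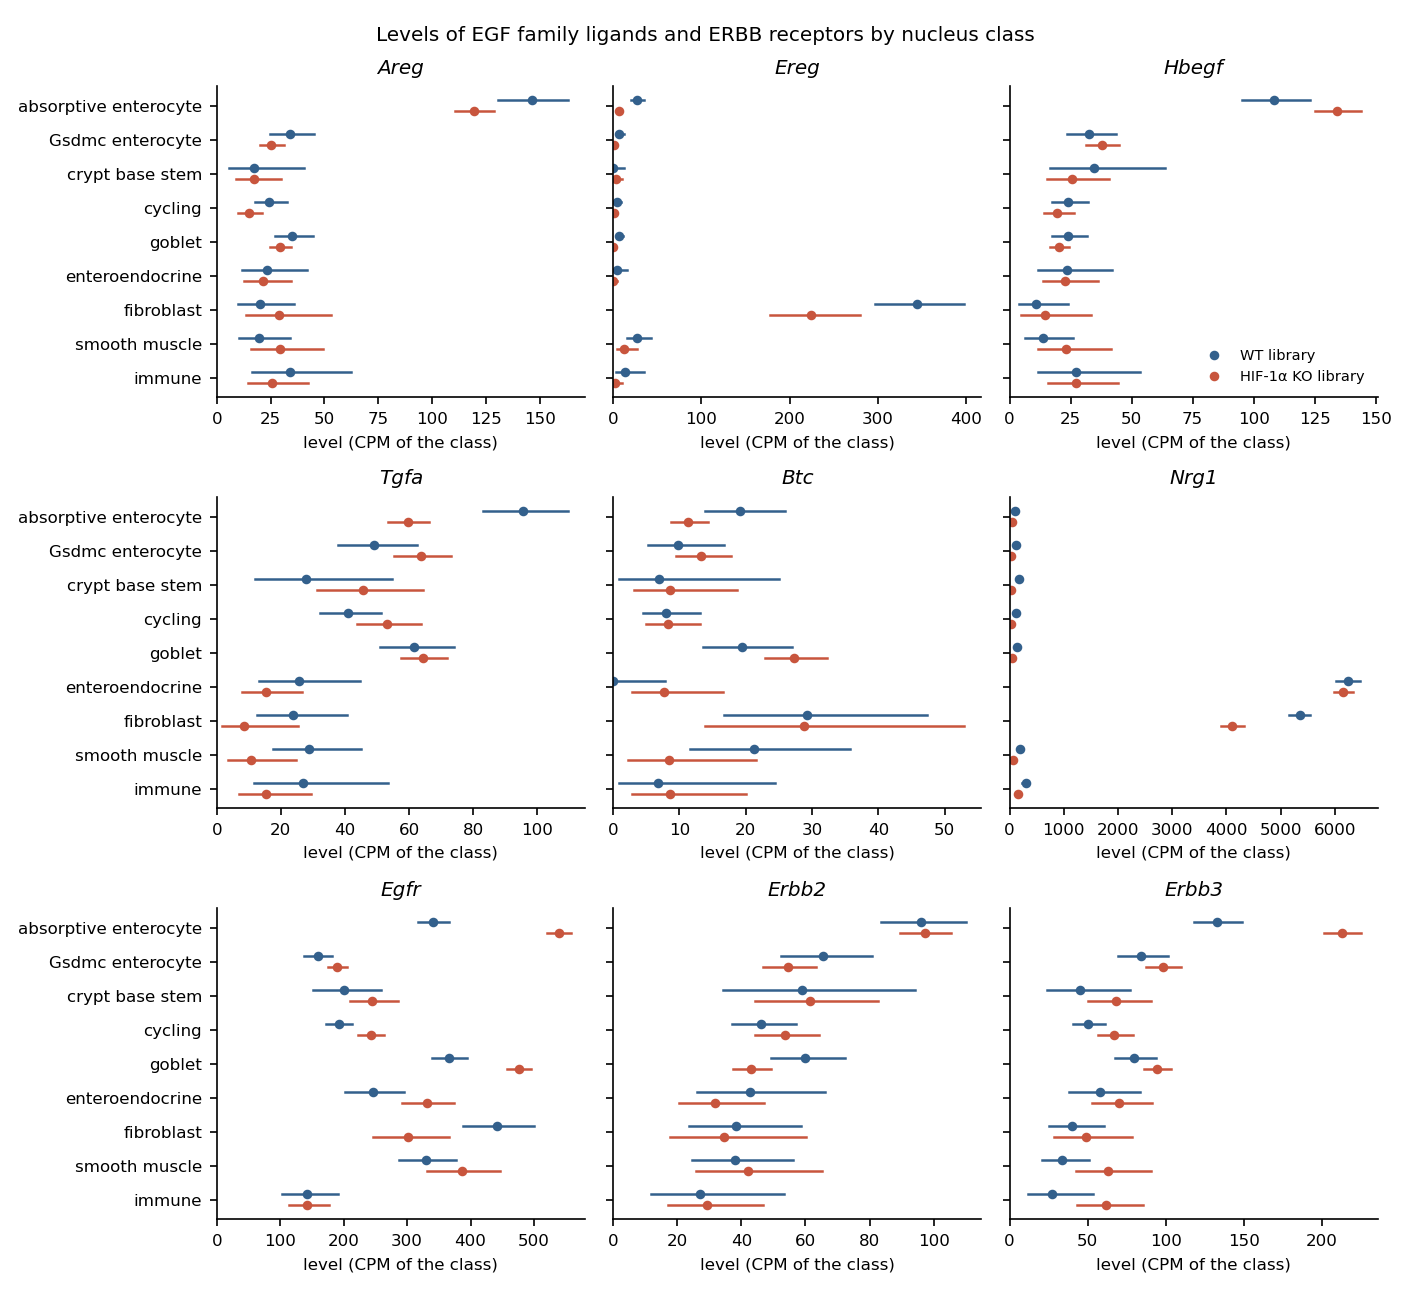
Each panel gives 1 gene, with its level in CPM (horizontal axis, starting at 0 and scaled per gene) in 9 classes of nuclei, and bars are exact 95% Poisson intervals for the WT (blue) and the HIF-1α KO (red) library. Areg and Hbegf stand apart in absorptive enterocyte-like, Ereg in fibroblast-like, and Nrg1 in enteroendocrine-like and fibroblast-like nuclei.

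Areg and Hbegf, encoding amphiregulin and HB-EGF, marked absorptive enterocyte-like nuclei. Areg was at 146 CPM (131 to 163) in the WT and 119 CPM (111 to 129) in the HIF-1α KO library, and these nuclei held 50.3% and 64.1% of its UMIs. The class next in order, goblet-like, had 35.1 and 29.5 CPM, and the 8 other classes overlapped with their neighbours. Hbegf was at 108 CPM (95.1 to 123) and 134 CPM (125 to 144), against 24.0 and 25.9 CPM in all other nuclei. Of absorptive enterocyte-like nuclei 33.1% in the WT library and 38.8% in the HIF-1α KO library had a UMI of Areg, at median depths of 3552 and 5947 UMIs. In crypt base stem-like nuclei, the class with the lowest Areg by the mean of both libraries, these shares were 3.82% and 6.22% at 1962 and 3141 UMIs. With every nucleus thinned to 1000 UMIs the shares were 13.9% and 9.6% in absorptive enterocyte-like and 0.763% and 2.07% in crypt base stem-like nuclei.

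The epithelial clusters showed how these levels lay between the crypt and the surface. The Lgr5 and Smoc2 cluster (crypt base stem-like), the largest cycling-like cluster and an unnamed cluster led by Grin2b, Htr4 and Cftr had 12.9 to 26.1 CPM of Areg and 20.1 to 34.6 CPM of Hbegf. Gsdmc enterocyte-like nuclei had 33.9 and 25.2 CPM of Areg in the WT and HIF-1α KO libraries. In the absorptive cluster led by Slc9a3 and Slc37a2 Areg was at 149 CPM (126 to 174) and 143 CPM (129 to 158). In the absorptive cluster led by Lama3 and Clca4a, with the surface markers Car4 and Aqp8, it was at 144 CPM (123 to 167) and 101 CPM (90.6 to 112). Areg was thus at least 3-fold higher in both absorptive clusters than in the other 4 of these clusters, in each library. Hbegf had 133 CPM in the WT and 106 CPM in the HIF-1α KO library in the Slc9a3 cluster, and 86.6 and 156 CPM in the Lama3 cluster, so that the order of these clusters was opposite in the libraries.

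**Figure D3:**
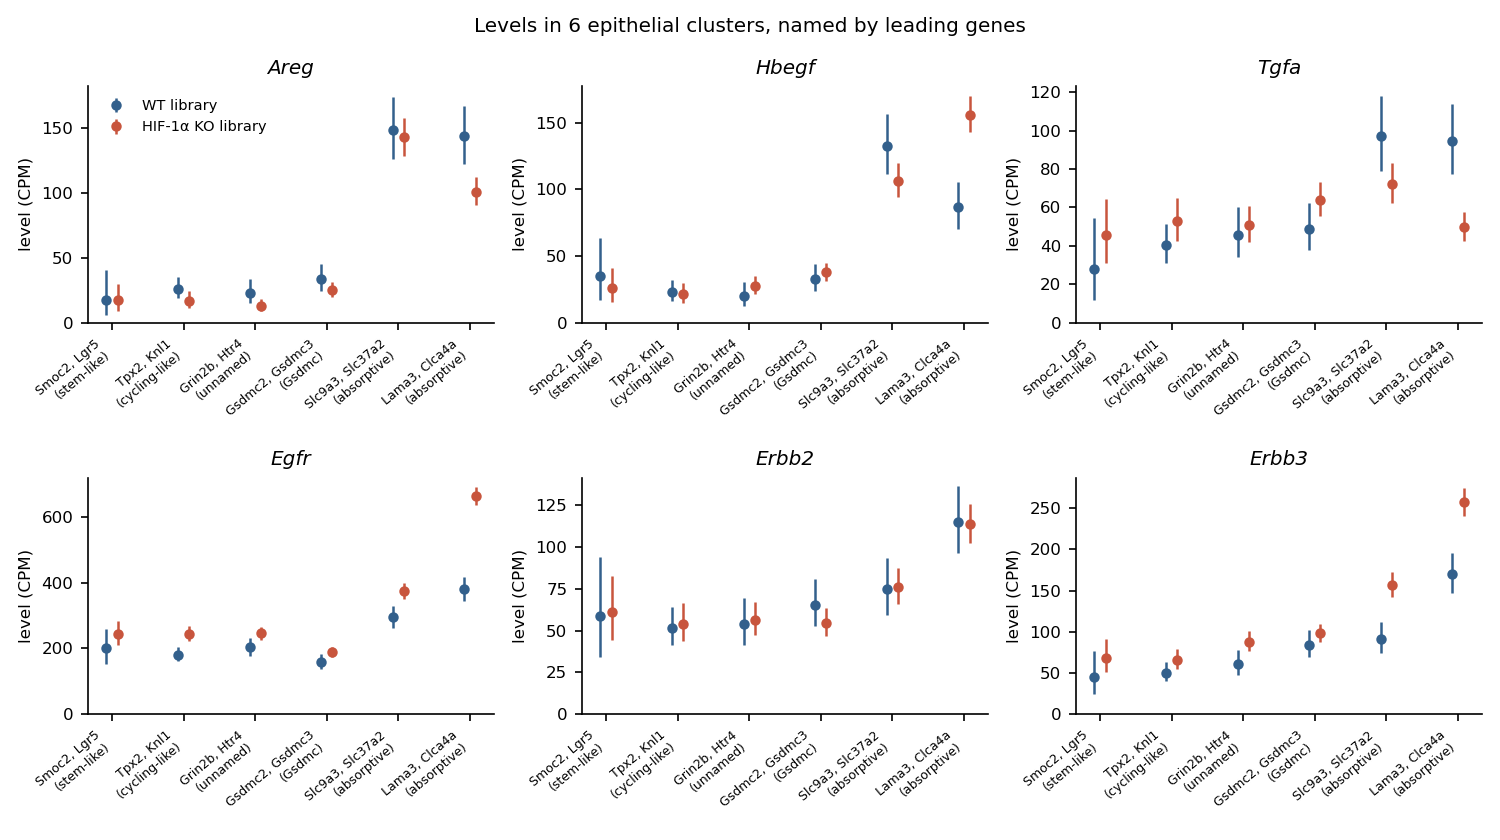
Levels in CPM (vertical axis from 0) of 6 genes in 6 epithelial clusters, named by leading genes and drawn from the stem-like to the Lama3 absorptive cluster, with exact 95% Poisson intervals. Areg and Hbegf lie below 40 CPM in the 4 clusters on the left, and Egfr and Erbb3 are highest in the Lama3 cluster in both libraries.

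Tgfa and Btc were less tied to a class. Tgfa had its highest mean in absorptive enterocyte-like nuclei, at 95.7 CPM (83.2 to 110) in the WT and 59.6 CPM (53.5 to 66.1) in the HIF-1α KO library, but the class was not separated from goblet-like nuclei, with 61.6 and 64.4 CPM. Against all other nuclei its log2 ratio was 1.09 for WT nuclei and 0.19 for HIF-1α KO nuclei. Btc had 29.2 and 28.8 CPM in fibroblast-like nuclei, which overlapped with 19.4 and 27.3 CPM in goblet-like nuclei. The goblet-like cluster led by Clca1 and Fcgbp, genes of mature goblet cells, had 32.8 CPM (21.2 to 48.5) in the WT and 45.0 CPM (36 to 55.6) in the HIF-1α KO library. The goblet-like cluster led by Slc12a8 and Spdef had 6.29 CPM (2.04 to 14.7) and 6.42 CPM (3.42 to 11) of Btc, below those intervals in both libraries.

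Egfr, the receptor shared by most of these ligands, had UMIs in every class. Outside goblet-like nuclei its level was below that of Muc2 in the same nuclei in nearly all classes. The exception was absorptive enterocyte-like nuclei of the HIF-1α KO library, with 539 CPM of Egfr and 516 CPM of Muc2. UMIs in a class therefore do not show that its nuclei express Egfr. Its level ranged in the WT library from 142 CPM in immune-like to 441 CPM in fibroblast-like nuclei, and in the HIF-1α KO library from 142 CPM in immune-like to 539 CPM in absorptive enterocyte-like nuclei. No neighbouring classes in its order were separated. Goblet-like nuclei had 366 and 476 CPM, and their Clca1 cluster had 526 CPM (476 to 581) in the WT and 773 CPM (734 to 813) in the HIF-1α KO library, the highest of the 3 goblet-like clusters in both. Crypt base stem-like nuclei had 201 and 245 CPM, below the absorptive enterocyte-like level in each library. Whether the counting used strand is not given in the sources used here, and Egfr overlaps Egfros on the opposite strand, a gene with 7 WT and 108 HIF-1α KO UMIs against 3406 and 8590 of Egfr.

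Erbb3, the neuregulin receptor, was highest in absorptive enterocyte-like nuclei, with 133 CPM (118 to 149) in the WT and 213 CPM (202 to 225) in the HIF-1α KO library, separated from Gsdmc enterocyte-like nuclei with 84.4 and 98.2 CPM. Among the 6 epithelial clusters of the plot its level was lowest in the crypt base stem-like and the cycling-like one and highest in the Lama3 cluster, at 171 and 257 CPM. Erbb2, the partner receptor without a ligand, was also highest in the Lama3 cluster, at 115 CPM (96.4 to 136) and 114 CPM (103 to 126), followed by the Slc9a3 cluster with 75 and 76.1 CPM. The other 4 clusters had 51.6 to 65.5 CPM of Erbb2, with crypt base stem-like nuclei at 58.9 and 61.4 CPM. Of the classes with high Nrg1, enteroendocrine-like nuclei had 57.7 and 70.0 CPM of Erbb3, which ranked 4 of 9 classes, and fibroblast-like nuclei had 40.1 and 48.9 CPM. Erbb4 had 21 UMIs among WT and 26 among HIF-1α KO nuclei, which is 1.58 and 1.10 CPM, and its order over classes cannot be read at this depth. Erbb2 overlaps Mien1 on the opposite strand, with 100 and 231 UMIs. Ereg overlaps Gm19610, also on the opposite strand, with 92 and 65 UMIs against 342 and 145 of Ereg. How the counting kept the reads of such pairs apart was not checked.

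The comparison between genotypes asks how the tissue around NKp46+ cells differs where these cells lack HIF-1α. A gene was taken as higher or lower where the ratio between the libraries was at least 1.5-fold and the gene had at least 100 UMIs in both together. In all nuclei 9 members had enough UMIs, of which 1 was higher and 2 were lower in the HIF-1α KO library, while 11.8% of 12787 genes were higher and 14.9% lower. Erbb3 was the higher one, at 73.2 CPM in the WT and 118 CPM in the HIF-1α KO library (log2 ratio 0.69, 0.58 to 0.80). Ereg was lower, with 25.8 and 6.14 CPM (log2 ratio -2.07, -2.36 to -1.79), and so was Nrg1, with 618 and 313 CPM (log2 ratio -0.98, -1.03 to -0.94). Areg, Tgfa, Btc and Erbb2 had log2 ratios between -0.04 and 0.08, and Hbegf and Egfr had 0.49 and 0.50, short of 1.5-fold.

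Nrg1 was lower in all nuclei although the intervals of its leading class overlapped. Its log2 ratio in enteroendocrine-like nuclei was -0.02 (-0.09 to 0.05) and in fibroblast-like nuclei -0.38 (-0.47 to -0.29), while it was lower by the rule in 6 of the 9 classes, with log2 ratios between -2.04 in Gsdmc enterocyte-like and -0.95 in immune-like nuclei. In the 5 other epithelial classes Nrg1 ranged from 102 to 177 CPM in the WT and from 29.7 to 38.5 CPM in the HIF-1α KO library. In the same 5 classes the summed level of 9 fibroblast markers, of which at least 8 had a UMI in each class and library, ranged from 71.5 to 114 CPM in the WT and from 26.1 to 42.8 CPM in the HIF-1α KO library. The sum of 9 enteroendocrine markers, of which at least 7 had a UMI, ranged from 113 to 222 CPM and from 66.6 to 124 CPM. Both sums were lower in these classes of the HIF-1α KO library, but this was not particular to markers of the cells with the most Nrg1. Enteric neuron markers ranged from 226 to 422 CPM in the WT and from 82.8 to 166 CPM in the HIF-1α KO library. Immune markers ranged from 111 to 184 CPM and from 71.8 to 95.6 CPM. Markers of interstitial cells of Cajal were higher instead, from 145 to 617 CPM and from 212 to 1011 CPM. No cluster took its name from that list, however. Its sum was highest of the 9 classes in absorptive (554 and 1011 CPM) and Gsdmc enterocyte-like nuclei (617 and 923 CPM). It can therefore not be read as a measure of transcripts from other cells. The part of such transcripts in the Nrg1 difference was not tested. Fibroblast-like nuclei were 4.67% (4.09 to 5.30) of WT and 2.51% (2.08 to 2.998) of HIF-1α KO nuclei.

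**Figure D4:**
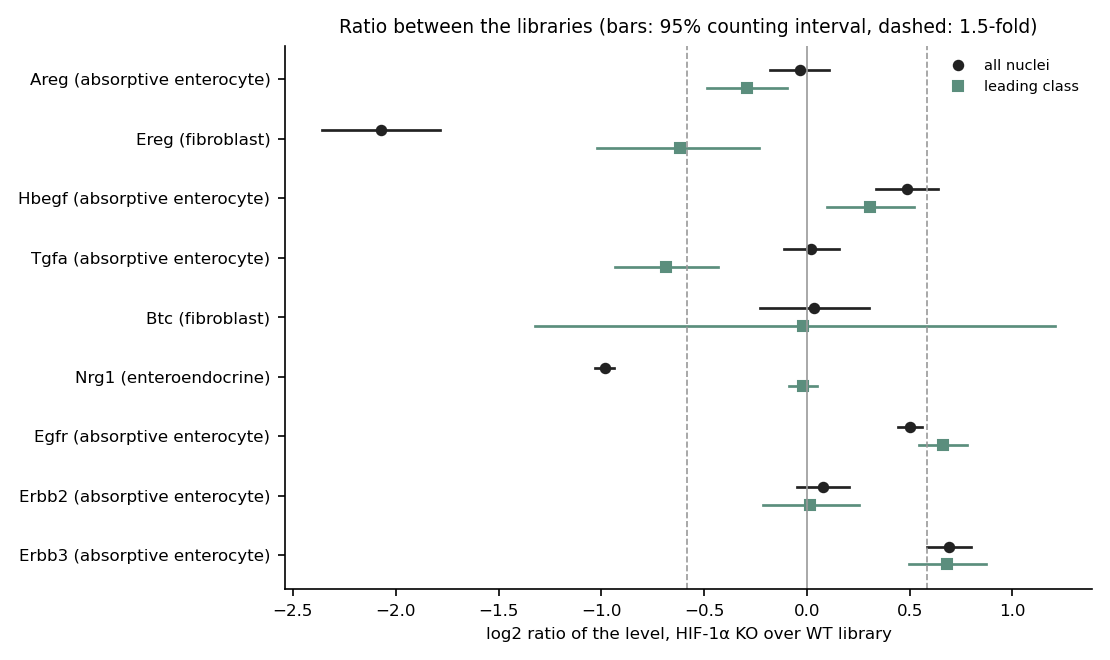
Points are log2 ratios of the level in the HIF-1α KO over the WT library for 9 members in all nuclei (circles) and in the leading class named on the vertical axis (squares), with exact 95% conditional intervals, and dashed lines mark 1.5-fold. Nrg1 lies at -0.98 in all nuclei and at -0.02 in its leading class.

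In the leading class of each member 2 were higher and 2 were lower in the HIF-1α KO library. Ereg was lower in fibroblast-like nuclei (log2 ratio -0.62, -1.02 to -0.23), where 4.35% of 2071 genes were lower and 7.53% higher. Without the nucleus with the most UMIs of the gene in each library the log2 ratio of Ereg was -1.61, and without the group led by Mmp13 it was -1.81. In absorptive enterocyte-like nuclei 8 members had enough UMIs, and 2 of them were higher and 3 lower, while 8.81% of 7307 genes were higher and 11.4% lower. The receptors Egfr (log2 ratio 0.66, 0.55 to 0.78) and Erbb3 (0.68, 0.50 to 0.87) were the higher ones. The ligands Tgfa (log2 ratio -0.68, -0.93 to -0.43), Btc (-0.76, -1.34 to -0.17) and Nrg1 (-1.44, -1.72 to -1.17) were the lower ones. Areg had a log2 ratio of -0.29 (-0.48 to -0.10), Hbegf 0.31 (0.10 to 0.52) and Erbb2 0.02 (-0.21 to 0.25). None of the ligands was thus higher and none of the receptors lower by the rule in this class. For Nrg1 the class had the lowest mean level of the 9, at 102 and 37.5 CPM. Whether its Nrg1 UMIs came from the nuclei of the class was not tested.

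The absorptive clusters did not share all of these differences. In the Lama3 cluster, where 9.34% of 5474 genes were higher and 11.6% lower, Hbegf (log2 ratio 0.85, 0.54 to 1.17), Egfr (0.81, 0.66 to 0.96) and Erbb3 (0.59, 0.37 to 0.82) were higher and Tgfa (-0.93, -1.28 to -0.56) and Nrg1 (-1.08, -1.44 to -0.71) lower. A nucleus of this cluster held a median of 1 and at most 11 Egfr UMIs in the WT and a median of 3 and at most 39 in the HIF-1α KO library, at median depths of 4124 and 6127 UMIs. In the Slc9a3 cluster, where 9.37% of 5168 genes were higher and 6.83% lower, Erbb3 (0.78, 0.46 to 1.12) was higher and Nrg1 (-1.99, -2.44 to -1.55) lower, and Hbegf was at -0.32 (-0.62 to -0.01). The Lama3 cluster made up 247 of 519 WT and 447 of 833 HIF-1α KO absorptive enterocyte-like nuclei. Over all 9 classes 38 pairs of member and class had enough UMIs, of which 2 were higher and 9 lower in the HIF-1α KO library, and 6 of the 9 were Nrg1. Beside these counts, the shares of all genes tested that were higher and lower were 9.58% and 5.15% in Gsdmc enterocyte-like, 17.9% and 3.4% in crypt base stem-like, 11.2% and 4.83% in cycling-like, and 8.96% and 7.48% in goblet-like nuclei. They were 7.15% and 3.77% in enteroendocrine-like, 9.23% and 5.28% in smooth muscle-like, and 16.2% and 3.38% in immune-like nuclei. The median log2 ratio of all genes was 0.22 in crypt base stem-like, 0.20 in immune-like and 0.11 in cycling-like nuclei and within 0.1 of 0 in the other 6 classes.

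In goblet-like nuclei 8 members had enough UMIs, and Nrg1 (136.6 and 38.4 CPM, log2 ratio -1.83) was the 1 past 1.5-fold, but their 3 clusters held further members past it. In the cluster led by Slc12a8 and Spdef, where 11.8% of 4984 genes were higher and 4.9% lower, Tgfa was higher, at 35.2 and 61.8 CPM (log2 ratio 0.81, 0.21 to 1.46), and Nrg1 was lower (-1.89). In the cluster led by Clca1 and Fcgbp, where 9.22% of 4413 genes were higher and 7.61% lower, Erbb2 was lower, at 95.8 and 51.3 CPM (log2 ratio -0.90, -1.35 to -0.44), as was Nrg1 (-1.74). In the cluster led by St6gal1 and Scin, where 10.9% of 2996 genes were higher and 4.21% lower, Tgfa was lower, at 102 and 67.3 CPM, but with an interval of its log2 ratio that reached past 0 (-0.60, -1.23 to 0.07). The ratio of Tgfa was thus past 1.5-fold with an interval on 1 side of 0 in the Slc12a8 cluster but not in the St6gal1 cluster, and the difference between the clusters was not tested.

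The other genes of the pathway were 39 in 5 lists, compared in all nuclei against the same shares of 11.8% higher and 14.9% lower. Of 5 other EGF family ligands 4 had enough UMIs, and Egf was higher (5.35 and 8.47 CPM, log2 ratio 0.66) and Nrg2 lower (9.13 and 3.13 CPM, -1.54), with a median of -0.09 over the list, beside -0.01 over all genes tested. Epgn, next to Ereg, had 6 and 3 UMIs. All 4 genes of ligand release stayed within 1.5-fold, from Rhbdf1, whose product carries ADAM17 to the surface (-0.20), to Adam10, a sheddase (0.05), with a median of -0.14. All 12 adaptors and RAS-MAPK or PI3K effectors also stayed within it, from Mapk3, the kinase ERK1 (-0.38), to Gab1, a docking protein (0.40), with a median of -0.05. Within the 9 classes the genes of ligand release with enough UMIs also stayed within 1.5-fold, as did most effectors in each class. In crypt base stem-like nuclei 2 of 9 effectors were higher, beside 17.9% of all genes tested. They were Gab1 (log2 ratio 0.75) and Pik3ca, a catalytic PI3K subunit (0.60). Gab1 was also the 1 of 12 higher in cycling-like nuclei (0.68, beside 11.2%) and the 1 of 8 in fibroblast-like nuclei (0.99, beside 7.53%). Map2k1, the kinase MEK1, was the 1 of 8 higher in immune-like nuclei (0.62, beside 16.2%). Mapk3 was the 1 of 12 lower in Gsdmc enterocyte-like (-0.66, beside 5.15%) and in goblet-like nuclei (-0.60, beside 7.48%). With 1 or 2 genes per class these calls do not set the effectors apart from all genes.

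Inhibitors of the receptors and of RAS-MAPK, many of them induced by the pathway itself, differed in both directions. Of 13, all with enough UMIs, Errfi1, whose product binds and blocks EGFR, was higher (99.9 and 166 CPM, log2 ratio 0.74). Spry1 (-0.97), Spry4 (-0.65) and Dusp6, the phosphatase of ERK (39.5 and 23.7 CPM, -0.74), were lower, and the median of the list was -0.26. Of 5 ERK-responsive transcription factors 4 had enough UMIs in all nuclei, all past 1.5-fold. Egr1, an immediate-early gene, was higher (16.2 and 31.0 CPM, 0.93), while Myc (11.5 and 3.6 CPM, -1.67), Etv4 (45.7 and 20.1 CPM, -1.18) and Etv5 (34.2 and 18.8 CPM, -0.86) were lower, and the median was -1.02. In absorptive enterocyte-like nuclei, the class with higher Egfr and Erbb3, where 8.81% of all genes tested were higher and 11.4% lower, 2 of 11 inhibitors were higher, Errfi1 (0.62) and Dusp5 (0.72), and 4 were lower, Dusp6 (93.4 and 46.6 CPM, -1.003), Spred1 (-0.76), Rnf41, a ubiquitin ligase for ERBB3 (-0.61), and Spry2 (-0.59). Errfi1 and Dusp6, which are both inhibitors, thus differed in opposite directions in the same nuclei. Of the ERK-responsive transcription factors 1 had enough UMIs in these nuclei, and it was higher (log2 ratio 1.19). In goblet-like nuclei 2 of 3 were lower and 0 higher, beside 7.48% and 8.96% of all genes tested. In cycling-like nuclei 1 of 2 was lower and 0 higher, beside 4.83% and 11.2%. No factor had enough UMIs in the other classes.

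Genes with the pattern most like each member over 18 points, the 9 classes in both libraries, were found by Pearson's r of log2(CPM + 10) among 8205 genes, as a description. The points share libraries and depth, and classes were told by other genes. Nrg1 was most like Prex2 (r = 0.97), Negr1 (0.96) and Piezo2 (0.95), a mechanically gated channel. Ereg was most like Hgf (0.95), the ligand of MET, Dcn (0.95), which is 1 of the fibroblast markers, and Lamb1 (0.95). Areg was most like Prr13 (0.95), Klf6 (0.95) and Sgk2 (0.94), and Hbegf like Azin1, Myh14 and Slc26a2 (0.93 to 0.90). Erbb3 was most like Dsg2 (0.97), a desmosomal cadherin, Cdhr2 (0.95) of the brush border and Ndfip2 (0.95). Erbb2 was most like Plek2, Car9 and Kif1c (0.92 to 0.89), and Tgfa like Crk, Tspan8 and Gm42941 (0.91 to 0.88). Btc (Cyp27a1, Gbp7 and Tug1, 0.79 to 0.75) and Egfr (Spats2l, Irs2 and Ppp1r2, 0.85 to 0.78) had no gene above 0.85.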

How the data were processed

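Nuclei from frozen colon were profiled with droplet-based 3′ RNA sequencing in 1 WT and 1 HIF-1α KO library. The authors ran Cell Ranger 7.0.1 on mm10 and deposited raw counts of UMIs per gene for 4896 and 4772 barcodes, with 13492810 and 25489277 UMIs. Whether intronic reads were counted is not given in the sources used here. The quality filter of the study was applied, no doublet caller was run, and libraries were integrated with Seurat 5.3.0 in R 4.3.3 (canonical correlation anchors, 2000 variable features without members and pathway genes, 30 principal components, resolution 1). Enteroendocrine-like, fibroblast-like and immune-like nuclei were clustered again, the first after their values were seen.

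A cluster took the name of the list with the highest mean log2 ratio of markers (10 CPM added) if at least 3 markers reached a log2 ratio of 1 and were found in 10% of its nuclei, at least 1 was among its 10 leading genes, no other list had more there, and its depth was not over 3-fold below that of its library. The thresholds for names were chosen with these data in view. Members and lists were chosen with earlier results of these data known. The text names all members, of the pathway lists the genes past 1.5-fold in all nuclei or with the highest or lowest ratio, and the 3 most alike genes of members with at least 200 UMIs. Leading genes of clusters, and pathway genes within classes, were named after their values were seen.

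UMIs were summed with Python 3.11.15, numpy 2.4.6 and scipy 1.17.1. With 1 library per genotype no test was made. The rule of 1.5-fold and 100 UMIs was tested on simulated counts: of 200 genes changed by 3-fold all were recovered in all nuclei, and 0.39% of 12566 unchanged genes were called. In the 4 classes simulated all 200 were recovered as well, and 1.12% to 1.76% of unchanged genes were called. Smaller changes were not simulated. The simulated counts held counting error alone, without variation between animals, nuclei or libraries. These shares therefore do not measure how often the rule calls unchanged genes in the real libraries. Genes were placed with GENCODE on GRCm38. Alternatives tried were thinning, equal weights for nuclei, another scaling, the 5% of nuclei with the most UMIs left out, other clusterings, assignment by marker score, no filter, and other limits of UMIs and fold. Further alternatives were added after the data were seen. They left out the fibroblast-like group led by Mmp13, or the nucleus with the most UMIs of each member.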

Additional observations from a re-analysis of the deposited data

Results flagged for a closer look

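Tgfa, which encodes TGF-α, had ratios of opposite direction in epithelial clusters, each past 1.5-fold, and the difference between the clusters was not tested. In the goblet-like cluster led by Slc12a8 and Spdef the HIF-1α KO library had more, with 35.2 CPM (23.4 to 50.9) in the WT and 61.8 CPM (51.4 to 73.6) in the HIF-1α KO library (log2 ratio 0.81). In the absorptive cluster led by Lama3 and Clca4a it was lower, with 94.4 and 49.7 CPM (log2 ratio -0.93). In the goblet-like cluster led by St6gal1 and Scin it was lower as well, with 102 and 67.3 CPM (log2 ratio -0.60, -1.23 to 0.07), on 30 and 73 UMIs. The third goblet-like cluster, led by Clca1 and Fcgbp, had 73.5 and 65.4 CPM.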

How the results depend on the processing

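No paired analysis was possible because each genotype had 1 library and no test was made, and leaving out a library leaves no comparison. Of 360 single values recomputed under alternatives 273 moved by less than their counting interval, 87 moved by more, and 0 that had been past 1.5-fold changed direction. Of 75 counts 63 stayed within 1.5 times their value. With every nucleus thinned to 1000 UMIs, 1 member was higher and 1 lower in its leading class, and of 17 pairs of member and class 1 was higher and 5 were lower. By assignment of each nucleus from its own marker score 4 pairs were higher, and with the same and no filter on nuclei 1 member was lower in its leading class and 5 pairs were higher. With at least 50 UMIs 4 of 47 pairs were higher, and with at least 1 UMI 12 of 89 were higher and 26 lower. At 2-fold 0 pairs were higher and 5 lower. The cause of these changes was not tested, except that thinning and the limits on UMIs change how many pairs are counted. Shares of all genes were not computed under these alternatives, and with at least 1 UMI a ratio can rest on few UMIs. The counts therefore describe how the rule behaves and are no result about the members.

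Ereg stayed lower by at least 1.5-fold in all nuclei under all 7 alternatives (log2 ratio -2.52 to -2.06) and in fibroblast-like nuclei under all 11 (-1.81 to -0.59), and Nrg1 did so in all nuclei under all 7 (-1.32 to -0.95). These numbers include the alternatives added after the data were seen, and the -1.81 came from leaving out the group led by Mmp13. Erbb3 stayed higher in all nuclei under all 7. Egfr (0.51 to 0.83) and Erbb3 (0.55 to 0.91) in absorptive enterocyte-like nuclei stayed past 1.5-fold under 10 of 11 alternatives, as did Tgfa (-0.93 to -0.57). Egfr fell short with every nucleus thinned to 1000 UMIs, which evens out the median depths of 3552 WT and 5947 HIF-1α KO UMIs in this class. Erbb3 fell short without integration, and Tgfa with assignment by marker score and no filter. Nrg1 in enteroendocrine-like nuclei ranged from -0.51, without the 5% of nuclei with the most UMIs, to 0.02, and Hbegf in absorptive enterocyte-like nuclei from 0.13 to 0.86, the latter without integration of the libraries. Areg in absorptive enterocyte-like nuclei ranged from -0.60, past 1.5-fold without the same 5% of nuclei, to -0.24. These 3 were within 1.5-fold in the values reported. The log2 ratio of Tgfa in absorptive enterocyte-like to all other nuclei of the HIF-1α KO library, 0.19, ranged from -0.11 without integration to 0.67. Genotype, pool and library cannot be told apart, and Erbb4 and the members in stromal classes are limited by depth.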

Other observations

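Nrg1 was also found in small clusters that the comparisons do not use. Enteric neuron-like nuclei (27 WT and 22 HIF-1α KO) had 856 CPM in the WT and 331 CPM in the HIF-1α KO library. An unnamed cluster of 24 and 10 nuclei, led by Csmd1, Pcdh15 and Colq, had 1321 and 902 CPM. Among immune-like nuclei, a group led by S100a9 and S100a8, with Dab2 and F13a1 of the monocyte and macrophage lineage among its 10 leading genes (28 and 57 nuclei), had 263 and 392 CPM on 14 and 44 UMIs, and T cell-like nuclei (12 and 57) had 317 and 93.5 CPM on 9 and 11 UMIs.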
